A study of Mus musculus with 3 samples.

Results

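The MS4A genes described here are Ms4a6d, Ms4a6c, Ms4a6b, Ms4a4c and Ms4a7, 5 of the 26661 genes in the deposited table, found by gene name. They were chosen by the FPKM values of Ms4a6d in these 3 libraries, 5.78 in control, 25.4 after LPS and 6.98 when harmine preceded LPS, which lay nearly back at the control level. Those values serve below as a description. FPKM is a fragment count scaled for transcript length and library size. The cells were RAW264.7, a mouse macrophage line made by transformation with Abelson leukaemia virus. The control library came from untreated cells, the LPS library from cells given 0.5 µg/ml lipopolysaccharide (LPS, a bacterial glycolipid that activates toll-like receptor 4) for 6 h, and the harmine plus LPS library from cells given 10 µM harmine 0.5 h ahead of the same LPS dose and time. Harmine, an alkaloid of plants, inhibits monoamine oxidase A and the kinase DYRK1A. All 3 groups were the same wild-type line. Each group held 1 library, so the differences lack a replicate check, no test was possible, and every value compares these 3 libraries. No library had harmine without LPS.

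MS4A proteins span the membrane 4 times, with both ends in the cytoplasm, and most of their genes lie in a single cluster. Members with well known roles include CD20 of B cells, encoded by Ms4a1, and the beta chain of the high-affinity IgE receptor of mast cells, encoded by Ms4a2. The Ms4a6 genes are expressed in mouse myeloid cells, Ms4a7 is used as a marker of resident macrophages such as those at the borders of the brain, and MS4A proteins of macrophages are known to associate with other receptors, such as MS4A4A with the beta-glucan receptor Dectin-1. No role is given here for Ms4a4c.

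The cluster occupied 661 kb of chromosome 19 in the table, from 10962293 to 11623719 on mm10, and held 16 Ms4a genes among 24 genes in all. Ms4a6d lay on the minus strand at 11586604 to 11604849, Ms4a6b on the plus strand at 11516512 to 11531256 and Ms4a6c on the plus strand at 11469366 to 11482192. Further along were Ms4a4c on the plus strand at 11404770 to 11427246 and Ms4a7 on the minus strand at 11321039 to 11336144. In the GENCODE M21 annotation of the same build, the transcript with the longest coding sequence had 741 coding bases in 6 coding exons for Ms4a6d, 651 in 6 for Ms4a6c and 732 in 6 for Ms4a6b. Coding sequences were 79.6% identical between Ms4a6d and Ms4a6c, 81.8% between Ms4a6d and Ms4a6b and 86.4% between Ms4a6c and Ms4a6b, over the bases that aligned. This measure leaves out gaps. By it Ms4a6d was also 83.3% identical to Ms4a14, whose coding sequence is far longer at 3696 bases. Against the remaining family genes the value for Ms4a6d was 60.1% to 69.3%.

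Likeness among the 3 Ms4a6 genes bears on how reads could be assigned, so the 120 coding bases in which they differ least are shown. Capitals mark the 11 positions where they are not all alike. The stretch runs from coding base 80 to 199 in each gene and crosses an intron, so it covers chr19:11601913-11603213 on the minus strand for Ms4a6d, chr19:11471184-11472444 on the plus strand for Ms4a6c and chr19:11520418-11521722 on the plus strand for Ms4a6b (mm10, from GENCODE transcripts). Ms4a6d differed from Ms4a6b at 5 of these 120 bases and from Ms4a6c at 7, and the latter pair differed at 10.
Ms4a6d: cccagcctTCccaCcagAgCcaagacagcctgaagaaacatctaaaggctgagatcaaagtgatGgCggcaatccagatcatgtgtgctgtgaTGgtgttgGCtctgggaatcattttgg
Ms4a6c: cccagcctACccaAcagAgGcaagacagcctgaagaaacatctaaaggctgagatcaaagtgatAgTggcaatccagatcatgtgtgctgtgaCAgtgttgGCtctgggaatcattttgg
Ms4a6b: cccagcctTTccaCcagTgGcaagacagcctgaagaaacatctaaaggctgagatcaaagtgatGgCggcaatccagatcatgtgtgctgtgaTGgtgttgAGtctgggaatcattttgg

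Of all 31-base words in the annotated transcripts of Ms4a6d, 5.10% also occurred in another MS4A gene; the share was 14.2% for Ms4a6c, 7.71% for Ms4a6b, 15.6% for Ms4a4c (shared with Ms4a4b and Ms4a4d) and 0% for Ms4a7. At 150 bases, the length of a read, no word of the 5 genes was shared with another MS4A gene. An exact read of the full 150 bases would therefore match the transcripts of only 1 MS4A gene. At 75 bases the share was 0.408% for Ms4a6d, 1.11% for Ms4a6c and 0.632% for Ms4a6b. The sources used here do not say how the authors assigned shorter reads from shared stretches. Splitting of reads between the Ms4a6 genes was not measured. The gene BE692007, a processed transcript annotated on the opposite strand, overlapped 12027 bases of the Ms4a6c gene span, introns included. The Ms4a6c transcript itself has 1841 bases, and overlap of exons was not measured. Reads from any exon bases common to the pair cannot be told apart unless strand was used in counting.

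The promoters of Ms4a6c and Ms4a6b are shown because the transcripts of these neighbouring, closely related genes differed with LPS and were both lower with harmine. Each is the 300 bases from 250 before to 50 after a RefSeq start on GRCm38.p6, at chr19:11469118-11469417 and chr19:11518309-11518608 on the plus strand. The Ms4a6c window holds 11469366, where its gene begins in the deposited table. The Ms4a6b window lies inside its gene, which begins at 11516512 there, so its start is not the outermost one. Capitals mark the 2 runs of at least 15 bases common to both.
Ms4a6c: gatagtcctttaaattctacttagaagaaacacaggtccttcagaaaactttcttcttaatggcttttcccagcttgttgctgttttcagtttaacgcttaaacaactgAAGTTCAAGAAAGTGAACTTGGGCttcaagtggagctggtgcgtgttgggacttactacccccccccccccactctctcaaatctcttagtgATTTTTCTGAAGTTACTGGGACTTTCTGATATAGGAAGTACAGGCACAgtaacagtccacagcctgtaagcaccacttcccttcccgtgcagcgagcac
Ms4a6b: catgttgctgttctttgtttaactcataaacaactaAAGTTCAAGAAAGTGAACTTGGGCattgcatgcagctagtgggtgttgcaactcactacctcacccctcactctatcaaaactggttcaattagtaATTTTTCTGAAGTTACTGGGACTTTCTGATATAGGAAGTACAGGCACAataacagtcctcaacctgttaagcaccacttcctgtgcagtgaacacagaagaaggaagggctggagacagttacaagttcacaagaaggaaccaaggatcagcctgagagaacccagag

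The runs are 48 and 24 bases long; the former begins 49 bases before the start in Ms4a6c and 118 before it in Ms4a6b, the latter 141 and 214 before it. RefSeq promoters were matched for 4 of the 5 genes, all except Ms4a6d. Motifs were searched on both strands: the core of the interferon-stimulated response element (GAAANNGAAA, in 3.44% of all 32851 mouse promoters of this length), the STAT site TTCNNNGAA (8.30%), the NF-kB site (4.51%), GAGGAAGT of the ETS factor PU.1 (3.20%), the AP-1 site TGANTCA (7.81%), the cAMP element TGACGTCA (1.79%) and TTGCNNAA of C/EBP factors (10.8%). None of these was found in the windows of Ms4a6c, Ms4a6b or Ms4a4c, and 1 of the 2 Ms4a7 windows held an AP-1 match. The shorter GAAANNGAA, searched after the sequences were seen and present in 8.56% of all promoters, lay in the 24-base run of both Ms4a6 promoters as GAAAGTGAA; it was also in both Ms4a7 windows and was found in 4 of 17 family genes. The ETS core GGAAGT, likewise added and present in 23.8% of all promoters, lay in the 48-base run; Ms4a4c and Ms4a7 held it as well, among 8 of 17 family genes. A match describes letters in these windows only.

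In the LPS library Ms4a6d and Ms4a6c stood about equally far above control, while Ms4a6b did not. Taking the libraries as control, LPS, then harmine plus LPS, here and below, Ms4a6d was at 5.78, 25.4 and 6.98 FPKM, from 167, 664 and 194 read pairs. Its LPS library was the high one, with the other libraries close together. Ms4a6c was at 3.71, 14.2 and 5.75 FPKM in the same order, from 126, 438 and 189 read pairs, again highest with LPS and with harmine plus LPS above control. Ms4a6b was at 2.02, 1.70 and 0.637 FPKM, from 151, 115 and 46 read pairs, and its low library was harmine plus LPS.

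**Figure D1:**
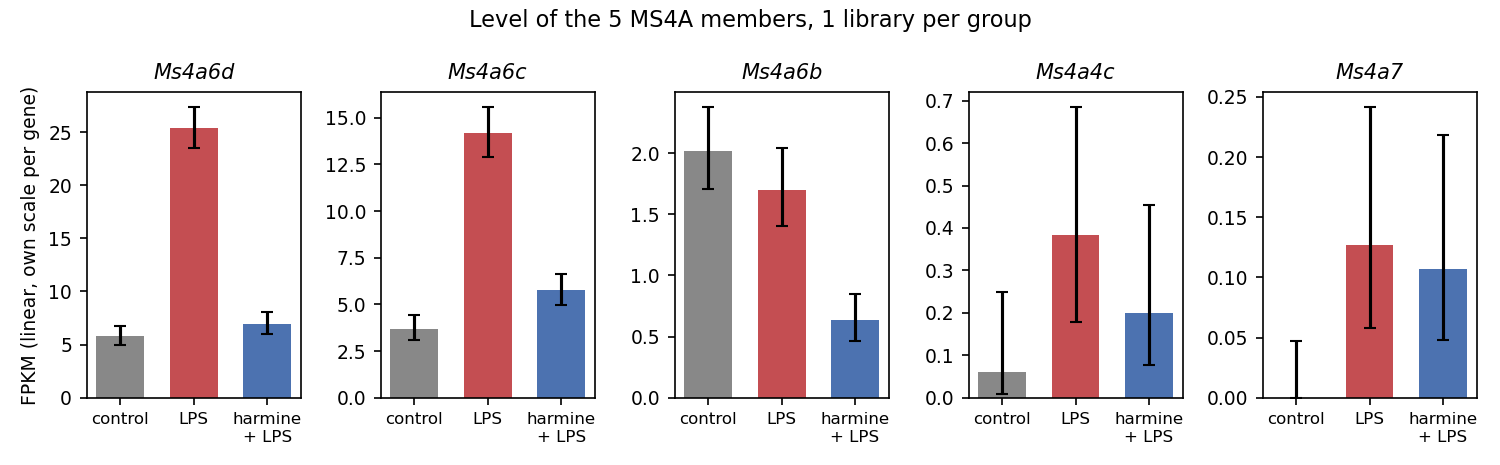
FPKM (linear axis from 0, separate scale for each gene) of the 5 genes in control, LPS and harmine plus LPS, with 1 library per bar and 95% exact Poisson intervals on read pairs, which cover counting error only. Ms4a6d and Ms4a6c peaked in the LPS library at 25.4 and 14.2 FPKM, Ms4a6b was lowest with harmine plus LPS at 0.637 FPKM, and Ms4a4c and Ms4a7 stayed under 1 FPKM.

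Ms4a4c and Ms4a7 were near the limit of detection. Ms4a4c was at 0.0600, 0.383 and 0.200 FPKM, from 2, 10 and 6 read pairs, highest with LPS. Ms4a7 had no counts in control; it was at 0.127 FPKM in the LPS library and 0.107 FPKM in the harmine plus LPS library, from 9 and 8 read pairs. The level of 3 read pairs, taken as the floor for a count of 0, is 0.0386 FPKM in control, and the 95% Poisson interval reaches 0.0474 FPKM. This marker of resident macrophages was close to the floor in all 3 libraries. A filter of at least 1 FPKM in at least 1 library left 3 of the 5 genes, and 12197 of all genes passed. The lowest member inside it was Ms4a6b, at a highest value of 2.02 FPKM. Ms4a4c, at 0.383 FPKM, was outside.

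The order of the levels was Ms4a6d, Ms4a6c, Ms4a6b, Ms4a4c, Ms4a7 in every library. In FPKM, Ms4a6d exceeded Ms4a6c by a ratio of 1.56 in control, 1.79 in LPS and 1.21 in harmine plus LPS. In the last of these the counting intervals of the pair overlapped, 6.04 to 8.05 FPKM and 4.96 to 6.64 FPKM, as did those of Ms4a4c and Ms4a7 in each library. Summed over Ms4a6d, Ms4a6c and Ms4a6b, the level was 11.5, 41.3 and 13.4 FPKM, which was 93.5%, 92.9% and 80.6% of the FPKM of all 16 Ms4a genes. The share of Ms4a6b in the sum of these 3 genes was 17.6% in control, 4.12% in LPS and 4.77% in harmine plus LPS, so both LPS libraries lay below control. In LPS the sum was higher, while Ms4a6b was at 1.70 FPKM beside 2.02 FPKM in control. In harmine plus LPS the sum was near control and Ms4a6b itself was lower, at 0.637 FPKM. In bulk RNA, fewer expressing cells and less RNA per cell cannot be told apart.

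For LPS against control, the FPKM ratio was 4.40 for Ms4a6d (95% interval 3.69 to 5.22, an exact binomial interval on read pairs that covers counting error only) and 3.83 for Ms4a6c (3.13 to 4.70). On the scale used for all genes, the difference in log2(FPKM + 1), which understates low genes, these were 1.96 and 1.69. Both passed 2-fold and ranked 234th and 305th from the top of 12197 genes. Ms4a6b had a ratio of 0.842 (0.652 to 1.08) and a difference of -0.16, near the median of all genes at -0.13. So 2 of the 3 compared genes passed 2-fold upward and 0 downward, where 5.79% of all genes compared were higher and 7.21% lower. The choice of the genes used the control and LPS values of Ms4a6d too, so nothing is read from this count. The ratio of Ms4a4c, 6.38 from 2 and 10 read pairs, had an interval of 1.17 to 51.7. For Ms4a7 no ratio is given, since its control library had no counts.

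For harmine plus LPS against LPS, the contrast from which Ms4a6d was picked, all 3 Ms4a6 genes were lower. Ms4a6d was 3.65-fold lower (3.09 to 4.29), Ms4a6b 2.67-fold (1.87 to 3.83) and Ms4a6c 2.47-fold (2.07 to 2.94), as FPKM ratios. The differences in log2(FPKM + 1) were -1.73, -0.72 and -1.17, the 12th, 245th and 57th lowest of 12197 genes. At 2-fold on this scale 2 of the 3 were lower, where 0.935% of all genes were lower and 0.664% higher, and at 1.5-fold all 3 were, where 3.35% were lower and 5.30% higher. This contrast set the choice of the genes, so nothing is read from these counts. Ms4a6b passed 2-fold as well with a pseudocount of 0.1 FPKM (-1.29), after TPM rescaling (-1.09) and with deposited counts scaled to library size (-1.18). The latter settings kept a pseudocount of 1 in units where Ms4a6b has larger values. Like the 0.1 FPKM setting, they give the pseudocount less weight. Ms4a6c no longer passed 2-fold with a pseudocount of 5 FPKM (-0.84). The median of all genes was 0.10 on the deposited scale; rescaling by median of ratios brought it to -0.02 and lowered the share of higher genes among those at 2-fold from 41.5% to 25.0%; relative to the former median the differences were -1.83, -0.82 and -1.27. Ms4a4c, 1.91-fold lower (0.583 to 5.93), and Ms4a7, 1.19-fold lower (0.409 to 3.56), had intervals that held no difference, so a change was not detectable at this depth.

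For harmine plus LPS against control, Ms4a6d was 1.21-fold higher (0.974 to 1.49), Ms4a6c 1.55-fold higher (1.23 to 1.96) and Ms4a6b 3.17-fold lower (2.26 to 4.51). Their differences in log2(FPKM + 1) were 0.23, 0.52 and -0.88, beside a median of -0.02 for all genes. At 2-fold 0 of the 3 were higher or lower, where 5.14% of all genes were higher and 4.86% lower, and at 1.5-fold Ms4a6b was lower, where 13.5% were. The 3 comparisons share libraries, so their values are not independent of each other. Of its LPS difference on the log2 scale, Ms4a6d gave back 88.1% and Ms4a6c 69.3% with harmine, the 13th and 35th highest shares among 706 genes that were 2-fold or more higher with LPS, whose median share was 14.3%. These shares restate the values by which the genes were chosen and are a description only. Ms4a6b, with no such difference to give back, fell outside this measure and ended below control.

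**Figure D2:**
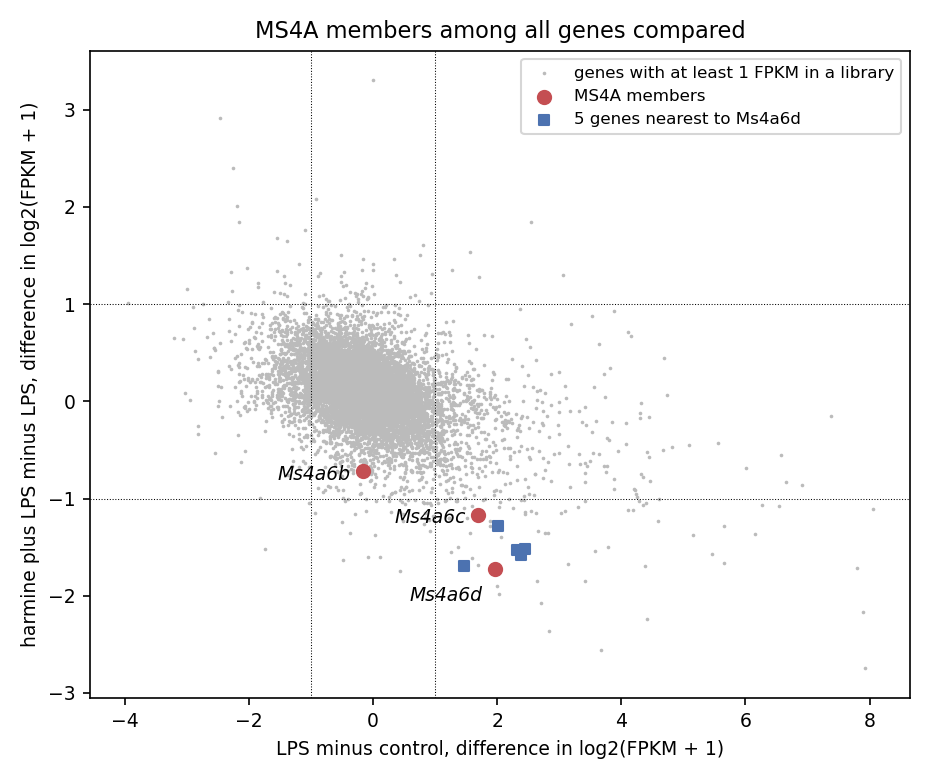
Difference in log2(FPKM + 1) of LPS minus control (x axis) against harmine plus LPS minus LPS (y axis) for 12197 genes, which share the LPS library on both axes; dotted lines mark 2-fold. Ms4a6d (1.96, -1.73) and Ms4a6c (1.69, -1.17) lie at the lower right, Ms4a6b (-0.16, -0.72) below the middle of the cloud, and blue squares are the 5 genes nearest to Ms4a6d.

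Over the 3 libraries, the 5 genes nearest to Ms4a6d were Clec4e, Sod2, Itgal, Fgr and Cpeb4, at distances of 0.41 to 0.52 in the plane of both log2 differences, among 6980 named genes with at least 5 FPKM in a library. Clec4e encodes the glycolipid receptor Mincle, Sod2 the mitochondrial superoxide dismutase, Itgal the alpha chain of the integrin LFA-1, Fgr a Src family kinase and Cpeb4 an RNA-binding protein of polyadenylation. Clec4e stood at 7.04, 39.2 and 12.9 FPKM in control, LPS and harmine plus LPS, and Fgr at 1.48, 5.87 and 1.13 FPKM. Ms4a6c came next in the order, at 0.62. Ms4a6b did not reach 5 FPKM and so was not in that set. By its distance of 2.35 it would have been 1321st. For Ms4a6c the nearest were Irak3, an inhibitor of toll-like receptor signalling, at 0.17, the alpha-defensin gene Defa31 at 0.20 and Phf11b at 0.24. For Ms4a6b they were Irf8, a transcription factor of the myeloid lineage, at 0.05, the chaperone gene Calr at 0.08 and the prostacyclin receptor gene Ptgir at 0.10. Irf8 stood at 11.4, 10.5 and 5.94 FPKM. Near the centre of the cloud many genes are close: 212 lay within 0.5 of Ms4a6b, 22 of Ms4a6c and 4 of Ms4a6d.

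Inside the cluster 7 of the 24 genes passed the filter. Besides Ms4a6d, Ms4a6c, Ms4a6b and Ms4a10 these were Gm6501, at 4.75, 5.50 and 6.98 FPKM, BE692007 and AW112010. Ms4a4d, which lies between Ms4a6b and Ms4a6d, was listed at 0, 0.0788 and 0.0842 FPKM, and Ms4a2, the gene next to Ms4a6d on its other side, at 0, 0 and 0.0439 FPKM. BE692007, opposite Ms4a6c, was at 0.218, 1.22 and 0.549 FPKM, 5.60-fold higher with LPS than control (3.38 to 9.64) and 2.23-fold lower with harmine (1.54 to 3.22), the same directions as Ms4a6c. AW112010, near the other end of the cluster, was highest in harmine plus LPS, at 0.526, 1.02 and 2.76 FPKM. The 3 expressed genes beyond each end kept within 2-fold in every comparison: Ccdc86 stood at 10.7, 18.7 and 19.4 FPKM, and Mrpl16, of the mitochondrial ribosome, at 12.2, 10.8 and 10.1 FPKM.

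**Figure D3:**
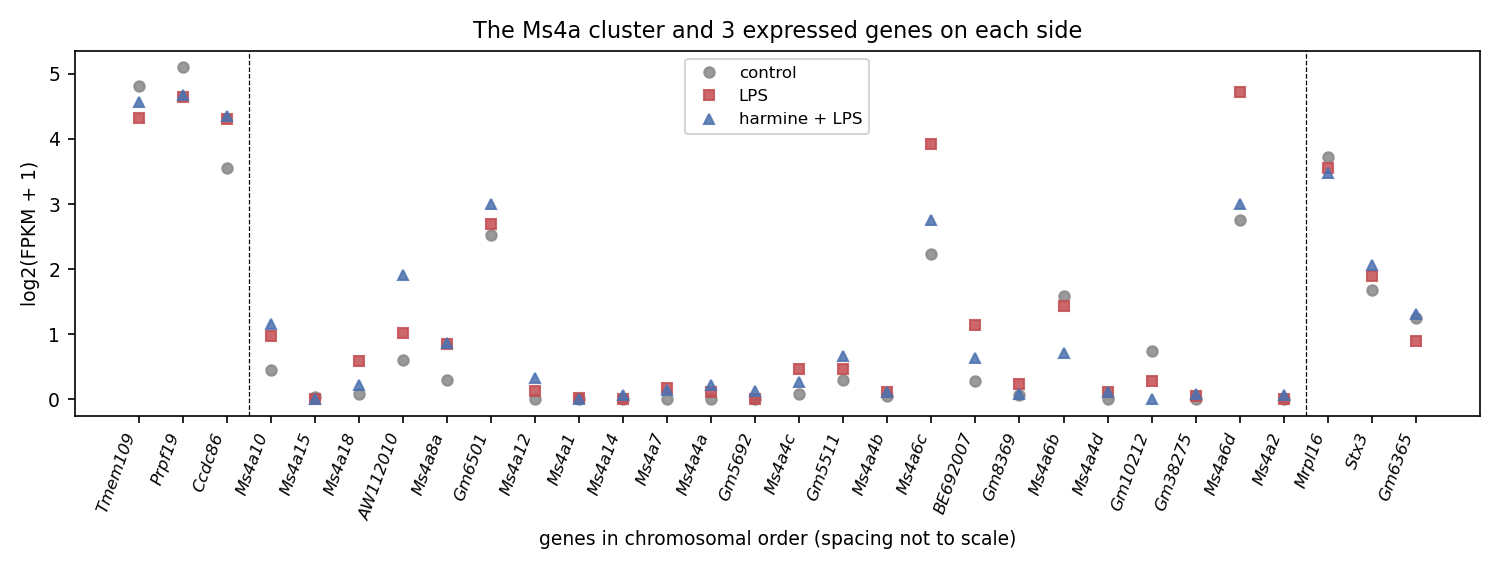
log2(FPKM + 1) in the 3 libraries for the genes of the Ms4a cluster and 3 genes with at least 1 FPKM on each side, in chromosomal order; dashed lines bound the cluster. Ms4a6c and Ms4a6d have an LPS point above the other libraries, and most other Ms4a genes lie near 0.

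Of 18 other family genes listed, 13 were in the table and 3 passed the filter: Ms4a10 and the MS4A-like pair Tmem176a and Tmem176b. On the log2(FPKM + 1) scale, none of the 3 passed 2-fold in any comparison. As an FPKM ratio to control, Ms4a10 was at 2.61 with LPS and 3.30 (1.34 to 10.5) with harmine plus LPS. Those ratios rest on few read pairs. Tmem176b, at 51.6, 39.8 and 35.7 FPKM, was the most abundant relative, and Tmem176a stood at 8.62, 4.41 and 5.00 FPKM, 1.95-fold lower with LPS (1.68 to 2.28). Both are known from antigen-presenting cells, and both were lower in the LPS library than in control, where Ms4a6d was higher. Ms4a1 was at 0.00943, 0.0187 and 0 FPKM.

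Ms4a10 and Ms4a8a, genes known from the intestine, were at 0.374, 0.975 and 1.23 FPKM and at 0.233, 0.801 and 0.830 FPKM. These values rest on few read pairs, 6, 15 and 20 for Ms4a10 and 7, 22 and 24 for Ms4a8a. Both genes moved with markers of intestinal epithelium, a list of 12 genes added after the values were seen, whose summed level was 50.5, 176 and 181 FPKM. The FPKM ratio of LPS to control was 2.61 for Ms4a10 (1.01 to 8.66), 3.44 for Ms4a8a (1.43 to 9.59) and 1.62 to 8.39 over the 12 markers, with a median of 3.82. Fibroblast markers summed to 1.28, 9.41 and 9.35 FPKM. The LPS ratios of Ms4a6d and Ms4a6c, 4.40 and 3.83, were within the same range. From LPS to harmine plus LPS, the ratio was 0.826 to 1.73 over the 12 intestinal markers, median 1.09. Over the 6 fibroblast markers it was 0.508 to 1.42, median 1.06, and for Ms4a6d and Ms4a6c it was 0.274 and 0.405. Defa31, an alpha-defensin gene of the kind known from intestinal Paneth cells, was not on the intestinal list. It was at 7.22, 27.6 and 13.3 FPKM, lower in harmine plus LPS than in LPS. The part of RNA from other tissues in the values of the MS4A genes was not tested.

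**Figure D4:**
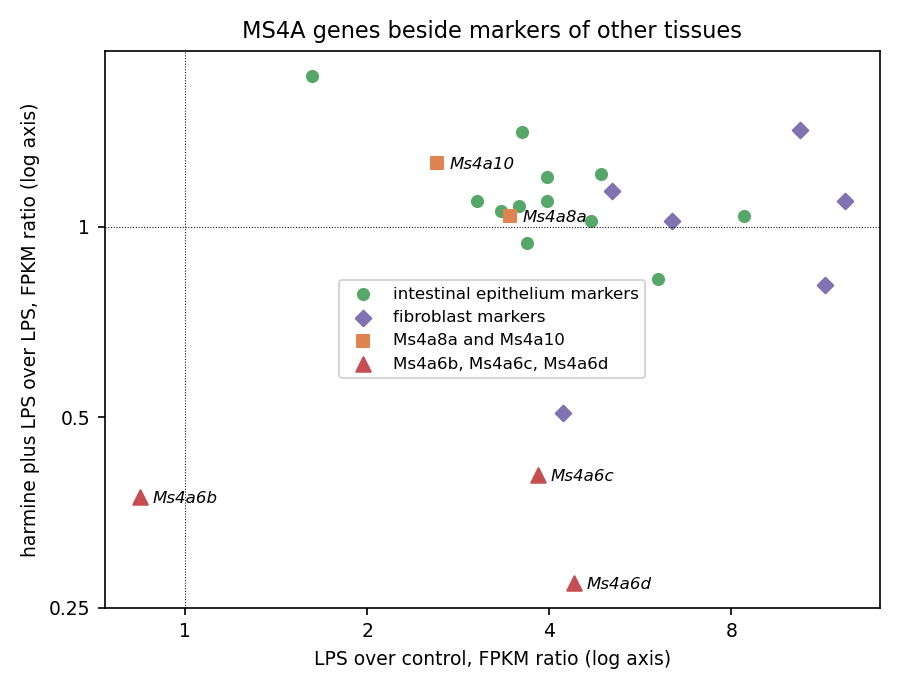
FPKM ratio of LPS to control (x axis, log scale) and of harmine plus LPS to LPS (y axis, log scale) for the 3 Ms4a6 genes, Ms4a8a, Ms4a10, 12 intestinal and 6 fibroblast markers. The intestinal markers lie between 0.826 and 1.73 on the y axis, the fibroblast markers between 0.508 and 1.42, and the Ms4a6 genes between 0.274 and 0.405.

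Markers of blood cells that express other MS4A genes were low. Cd79a, a signalling chain of the B cell receptor, was at 0.0786, 0.159 and 0.432 FPKM, whereas Ighm, the mu heavy chain, was an exception at 152, 44.6 and 35.8 FPKM. Of 8 T cell markers 7 stayed under 1 FPKM, Lck being the exception at 0.379, 2.52 and 1.86 FPKM, and of 6 mast cell markers all did. Of 14 macrophage markers 12 passed the filter; their median difference was -0.28 for LPS against control and -0.58 for harmine plus LPS against LPS. At 2-fold, 2 were higher and 2 lower with LPS, where 5.79% of all genes compared were higher and 7.21% lower. With harmine plus LPS against LPS, 1 was lower and 0 higher, where 0.935% of all genes were lower and 0.664% higher. The lower one was the Fc receptor gene Fcgr1, at 27.2, 13.8 and 5.67 FPKM. Csf1r, the receptor for macrophage growth factor, was at 259, 65.8 and 68.2 FPKM, and Adgre1, encoding F4/80, at 5.70, 16.4 and 9.88 FPKM. Cd14 was at 231, 813 and 476 FPKM, and Cx3cr1 at 91.3, 25.0 and 12.1 FPKM. The labels also name lung as the tissue. Of 9 lung epithelium markers listed, 6 were in the table, with summed levels of 2.00, 5.01 and 6.91 FPKM. The general epithelial genes Epcam, at 0.995, 3.07 and 4.45 FPKM, and Cdh1, at 0.280, 0.879 and 1.08 FPKM, passed the filter, while the surfactant gene Sftpb was at 0, 0.0130 and 0 FPKM.

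A list of 12 genes linked to MS4A proteins or their signalling had 11 in the table and 10 compared. With LPS, 5 were higher and 1 lower at 2-fold, where 5.79% of all genes were higher and 7.21% lower. With harmine plus LPS against LPS, 1 was lower and 0 higher, where 0.935% and 0.664% of all genes were. The median difference was -0.19, beside 0.10 for all genes. The lower gene with harmine was Nlrp3, the inflammasome sensor, at 17.0, 177 and 82.6 FPKM. The lower gene with LPS was Trem2, a lipid receptor of microglia and macrophages, at 42.5, 6.04 and 8.63 FPKM, lowest in the library where Ms4a6d was highest. Clec7a, encoding Dectin-1, was at 3.25, 1.81 and 1.76 FPKM. Tnfaip3, which encodes the NF-kB inhibitor A20, was at 2.26, 31.6 and 29.5 FPKM, with little difference between the LPS libraries.

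Most interferon-stimulated genes were far above control in both LPS libraries. Of 30 compared, 29 passed 2-fold upward with LPS (median difference 3.49), where 5.79% of all genes did. For harmine plus LPS against control 28 did so, where 5.14% of all genes did. From LPS to harmine plus LPS, 5 passed 2-fold downward (median difference -0.65), where 0.935% of all genes did. Isg15, a ubiquitin-like modifier, was at 2.09, 219 and 84.1 FPKM, and Cxcl10, a chemokine, at 0.831, 47.5 and 49.9 FPKM.

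The deposited counts summed to 58169999 in control, 52845589 in LPS and 56391972 in harmine plus LPS, and 4 deposited counts were taken as 1 read pair.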

How the data were processed

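RNA was purified with oligo(dT) and sequenced, with dUTP marking of the second strand and paired reads per the labels, in 1 library per group. The deposited table gives FPKM values and estimated counts per gene, per the file headers; the deposited estimated counts are not normalized. Per the submitters' processing notes, the build was mm10 and the tools included StringTie 2.1.6, HISAT2 2.2.1, edgeR, DESeq2 and cutadapt 1.9, with no role stated for any. More genes had 4 counts than 3 in every library (1072 against 566 in control), so 4 counts were taken as 1 read pair for intervals and floors, which cover counting error only.

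Genes with at least 1 FPKM in a library were compared by difference in log2(FPKM + 1), at 2-fold, with python 3.11.15, scipy 1.17.1 and biopython 1.88. With 1 library per group no count model or test was run. The calculation was tested on simulated data. The members, lists and rule for named genes (all members, family genes at 1 FPKM, cluster neighbours, leading genes of lists, nearest genes by likeness) were chosen with earlier results of these data known; the intestinal list and 2 short motifs were added after the values or sequences were seen. Predicted genes and pseudogenes were left out of the nearest genes. Clec7a, Fcgr1, Ighm, Lck, Cd79a, Sftpb, Epcam, Cdh1 and Ms4a8a fall outside that rule and were named after their values were seen. Jak2, Rsad2 and Usp18 are leading genes of their lists, but their values are not given. Promoters came from RefSeq (GRCm38.p6), and transcripts from GENCODE M21. Alternatives were other pseudocounts, filters, scalings and a 1.5-fold threshold.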

Additional observations from a re-analysis of the deposited data

How the results depend on the processing

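The direction of each of the 15 member differences held under every alternative that gave a value. Only the alternatives that rescaled the libraries could have changed a direction. Pseudocounts, filters and the threshold cannot. For harmine plus LPS minus LPS, Ms4a6d ranged from -1.86 to -1.35, Ms4a6c from -1.30 to -0.84 and Ms4a6b from -1.29 to -0.25, as log2 differences; for LPS minus control, Ms4a6c ranged from 1.14 to 1.91 and Ms4a6b from -0.23 to -0.07. For harmine plus LPS against LPS, the count of members at 2-fold was 2; it was 1 with a pseudocount of 5 FPKM, and 3, with Ms4a6b added, with a pseudocount of 0.1 FPKM, TPM rescaling, deposited counts scaled to library size (CPM) or the 1.5-fold threshold. For harmine plus LPS against control it was 0, and 1 (Ms4a6b) with TPM rescaling, with CPM, with a pseudocount of 0.1 FPKM and at 1.5-fold. TPM and CPM kept a pseudocount of 1 on larger values of Ms4a6b, so they too give it less weight. Changing the pseudocount, TPM rescaling or CPM moved 15 single-member values out of the counting interval; filters and the threshold cannot move such a value. Under the 5 FPKM filter only Ms4a6d and Ms4a6c remained. No paired analysis was possible because each group holds 1 library, and no library could be left out. Depth limits Ms4a4c and Ms4a7, at 10 or fewer read pairs per library.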
